A study of Bos taurus with 18 samples.

Results

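The beta subunits of the sodium pump and a set of potassium channels were followed in rumen papillae, the projections that line the first stomach of the cow. The 9 genes were chosen by name from the deposited count table of 27270 genes. They are the pump subunits ATP1B1 (ENSBTAG00000002688) and ATP1B3 (ENSBTAG00000014140), the channel genes KCNK5 (ENSBTAG00000011112), KCNK1 (ENSBTAG00000004515), KCNK6 (ENSBTAG00000023562), KCNJ5 (ENSBTAG00000006902), KCNQ1 (ENSBTAG00000010986) and KCNN4 (ENSBTAG00000004588), and the channel subunit KCNE3 (ENSBTAG00000011873). KCNJ5 and KCNK5 were picked because they moved in opposite directions with diet, so their diet values are a description and carry no test. Of the 9 genes, 8 had enough reads to be tested, and 22202 genes were tested in all. KCNE3 was too low.

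The papillae were biopsied from 9 rumen-cannulated, dry Holstein cows, first on a diet of 100% forage and later on a high-grain diet with 65% concentrate. Of these cows, 4 were given a supplement that the labels name only as PHY and 5 were controls, which makes 4 groups of libraries: grain_control (n = 5), forage_control (n = 5), grain_PHY (n = 4) and forage_PHY (n = 4). The labels do not say what PHY stands for, or whether it was already fed when the forage biopsies were taken. No label ties a library to a cow, so libraries of the same cow were treated as independent, and p-values measure the spread between libraries. Every cow had grain after forage, so diet and time of sampling cannot be told apart.

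The sodium pump uses ATP to carry sodium out of the cell and potassium in. Its alpha subunit does the transport, and a beta subunit folds the alpha subunit and brings it to the membrane. In the rumen wall the pump sits on the blood side of the epithelium and drives the uptake of sodium from the rumen fluid, and potassium channels let the potassium that it brings in leave again and so hold the membrane voltage.

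Read totals lay between 3953060 and 23949058 in the 9 grain libraries and between 15808999 and 34471682 in the 9 forage libraries. Reads on 144 genes for olfactory receptors, which sense odours in the nose, made up 32.9 to 345.3 counts per 1000000 reads (CPM) of a grain library and 16.3 to 65.0 CPM of a forage library. Read depth and this background therefore moved with diet. All 12 epithelial markers were detected, with a summed level of 11670 to 24360 CPM on grain and 9169 to 29430 CPM on forage. Over both arms edgeR's quasi-likelihood test called 7091 genes, 4023 higher and 3068 lower on grain, at an adjusted p under 0.05. With total reads in place of TMM (trimmed mean of M-values) as the scale it called 8057 higher and 81 lower, and the median log2 change over the tested genes became 0.75 in place of 0.20. The call count rested on single libraries: without grain_PHY 1, the shallowest, 1 gene was called.

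The first question was how the genes of the pump stood on grain and on forage. Both beta subunits were lower on average on grain, and neither passed the test. ATP1B3 had 1787 to 10244 reads in a grain library and 4429 to 18617 in a forage library. ATP1B1 had 73 to 519 reads on grain and 154 to 964 on forage.

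ATP1B3, the beta-3 subunit, stood at 238, 393.6, 382, 296 and 479 CPM in the grain_control libraries and at 493, 265, 341, 560.3 and 503 CPM in the forage_control libraries. PHY cows had 194, 376, 449 and 361 CPM on grain and 486.5, 580.2, 645 and 347 CPM on forage. The ranges overlapped in both arms, and 2 of 9 grain libraries lay below all forage libraries. Over both arms the log2 change was −0.42 ± 0.22 (SE; edgeR adjusted p = 0.114), and with total reads as the scale it was 0.0037. In bulk tissue, fewer cells of a type and less RNA per cell cannot be told apart.

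ATP1B1, the beta-1 subunit, stood at 10.9, 13.0, 15.8, 13.3 and 24.3 CPM in grain_control and at 20.4, 9.20, 15.9, 13.7 and 31.1 CPM in forage_control. In PHY cows it stood at 7.91, 14.7, 21.5 and 16.6 CPM on grain, and at 24.8, 24.6, 24.97 and 13.9 CPM on forage. Here too the ranges overlapped in both arms. The log2 change over both arms was −0.38 ± 0.22 (edgeR adjusted p = 0.155), and it was 0.03 with total reads as the scale. The reference annotation places ATP1B1 over part of NME7, and since the strand setting of the counting is not given in the sources used here, reads of the overlap could have gone to either gene.

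The ratio of 2 genes within a library does not depend on its scaling. It is a ratio of reads and not of molecules, since reads were not scaled to gene length. For every 100 ATP1B3 reads there were 4.33 ± 0.53 ATP1B1 reads on grain and 4.24 ± 1.05 on forage (SD, n = 9 each). The 2 beta subunits thus kept nearly the same mean proportion in libraries of both diets. The ratio was not tested.

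The two-pore channels KCNK5, KCNK1 and KCNK6 form leak channels, which are open at rest and set the resting voltage. KCNK5 opens with alkaline pH and closes with acid, and it is known from kidney and airway epithelium. KCNK1 and KCNK6 are weak inward rectifiers, and part of their protein is held inside the cell.

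KCNK5 stood at 52.0, 68.6, 78.0, 56.5 and 88.9 CPM in grain_control, and at 103.9, 87.3, 105.9, 145 and 116 CPM in forage_control. In PHY cows it stood at 37.9, 45.6, 72.7 and 70.1 CPM on grain and at 120.4, 116, 92.9 and 101 CPM on forage. In PHY cows the diets did not overlap, as for 15.8% of all genes in the same direction. In control cows 4 of 5 grain libraries lay below all forage libraries. The 1 exception was grain_control 5 at 88.9 CPM, just above forage_control 2 at 87.3 CPM. All 5 lay below for 0.86% of all genes, a stricter measure that KCNK5 did not meet. The share of genes with at least 4 of 5 was not computed.

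Over both arms the log2 change of KCNK5 was −0.81 ± 0.17. It was −0.93 ± 0.26 in PHY cows and −0.70 ± 0.23 in control cows. With total reads as the scale it was −0.37 ± 0.15 over both arms. Relative to the median gene it was −1.02 under TMM and −1.12 under total reads.

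KCNK6 fell on grain by 0.41 ± 0.14 on the log2 scale (edgeR adjusted p = 0.0376), and with total reads as the scale its change was 0.05 (adjusted p = 0.855). It stood at 12.4, 15.3, 18.6, 19.1 and 21.0 CPM in grain_control and at 21.6, 19.5, 16.6, 26.7 and 22.3 CPM in forage_control. The PHY cows had 13.7, 20.2, 17.1 and 20.7 CPM on grain and 27.4, 27.5, 28.4 and 19.4 CPM on forage. Grain libraries were lower on average, with overlap in both arms, and 3 of 9 grain libraries lay below all forage libraries. The call was also lost with DESeq2's size factors (adjusted p = 0.054), without the 3 shallowest libraries (log2 change −0.28, adjusted p = 0.258) and when any 1 of 11 libraries was left out, with adjusted p up to 0.116 without grain_PHY 1.

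KCNK1 stood at 1.09 to 4.63 CPM on grain (median 2.13) and at 1.06 to 4.25 CPM on forage (median 2.68), from 9 to 134 reads per library. The log2 change was 0.06 ± 0.33, with a 95% interval of −0.59 to 0.71 (edgeR adjusted p = 0.883), and it reached 0.66 with total reads as the scale.

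KCNJ5 is an inward rectifier that G proteins open when a receptor such as the muscarinic acetylcholine receptor is active. It is known from the heart and the adrenal cortex. It was the gene with the highest diet value of the 9. In grain_control it stood at 7.01, 2.67, 2.69, 5.13 and 1.78 CPM, and in forage_control at 2.04, 2.57, 1.87, 0.29 and 0.065 CPM. In PHY cows it stood at 11.7, 7.33, 4.21 and 4.82 CPM on grain and at 1.08, 0.25, 0.997 and 0.58 CPM on forage.

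The diets did not overlap in PHY cows, as for 14.2% of all genes in the same direction. In control cows 4 of 5 grain libraries lay above all forage libraries, and grain_control 5 (1.78 CPM) lay within the forage range. All 5 lay above for 0.491% of all genes, a stricter measure that KCNJ5 did not meet. The share of genes with at least 4 of 5 was not computed. The KCNJ5 levels rested on 38 to 108 reads in a grain library and on 2 to 43 reads in a forage library. Single values therefore carry large counting error. The lowest forage library, forage_control 5, had 2 reads.

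The log2 change of KCNJ5 was 2.38 ± 0.49 over both arms. It was 3.26 ± 0.75 in PHY cows and 1.51 ± 0.63 in control cows. With total reads as the scale it was 3.06 ± 0.60 over both arms. Relative to the median gene of each fit these were 2.18 under TMM and 2.31 under total reads. KCNJ1, the next gene to KCNJ5 in the reference annotation, had a log2 change of 1.33 ± 0.59 (edgeR adjusted p = 0.0781). KCNK17, the neighbour of KCNK5, had 1.01 ± 0.57 (edgeR adjusted p = 0.146), opposite in sign to KCNK5.

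**Figure D1:**
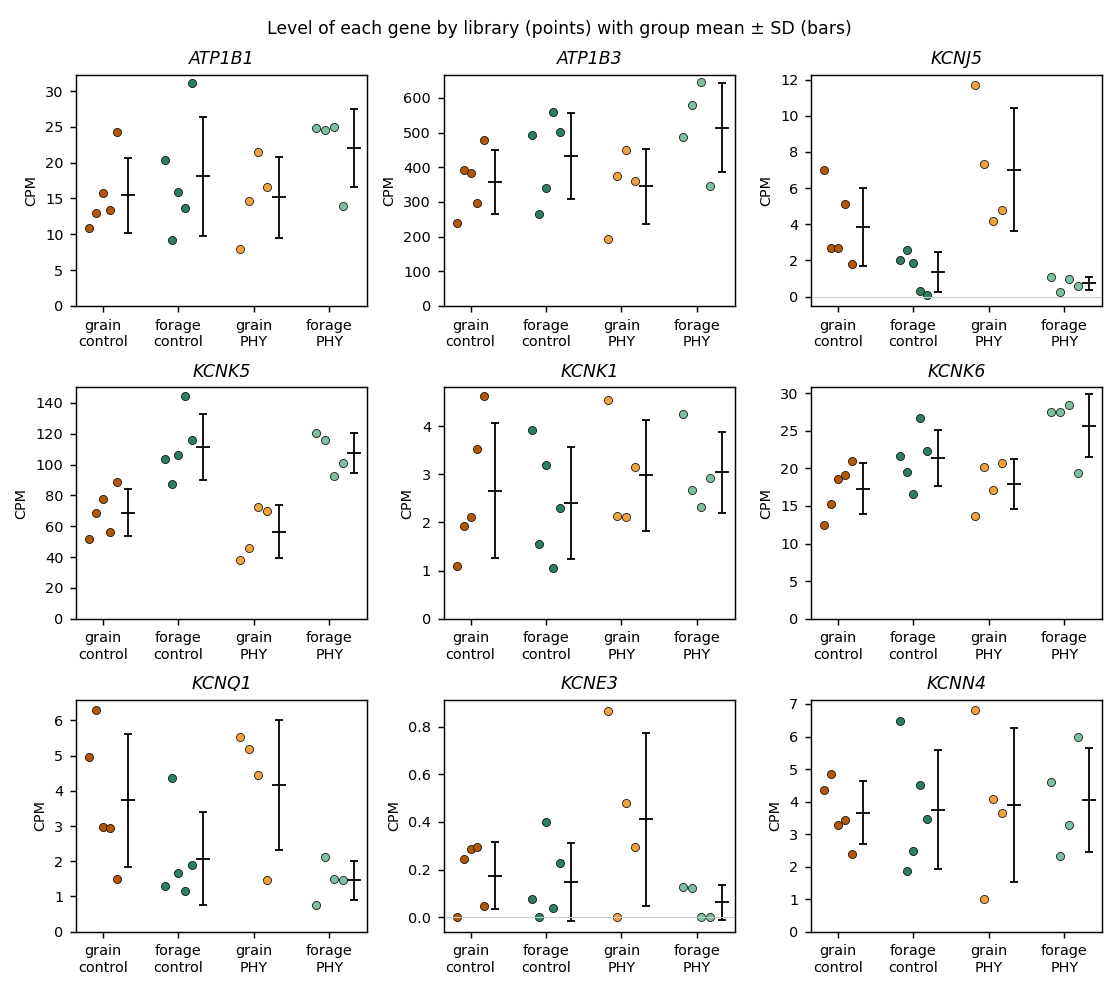
Level of each of the 9 genes in CPM (linear axes from each panel's own range) in the grain_control, forage_control, grain_PHY and forage_PHY libraries. Each point is 1 library, and the bars are the group mean ± SD. KCNJ5 lies between 4.21 and 11.7 CPM in grain_PHY and between 0.25 and 1.08 CPM in forage_PHY, and KCNK5 lies between 37.9 and 72.7 CPM in grain_PHY and between 92.9 and 120.4 CPM in forage_PHY.

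KCNQ1 is a voltage-gated channel that epithelia use on the blood side to recycle potassium, and KCNE3 is a small subunit that keeps the KCNQ1 channel open in gut and airway. KCNQ1 rose on grain, with a log2 change of 1.18 ± 0.36 (edgeR adjusted p = 0.0258). It stood at 4.96, 6.29, 2.98, 2.93 and 1.496 CPM in grain_control and at 1.28, 4.36, 1.67, 1.15 and 1.91 CPM in forage_control. The levels in PHY cows were 5.52, 5.20, 4.45 and 1.47 CPM on grain and 0.76, 2.12, 1.495 and 1.46 CPM on forage. Of 9 grain libraries 5 lay above all forage libraries. The lowest grain libraries were grain_PHY 4 (1.47 CPM) and grain_control 5 (1.496 CPM), and the highest forage library was forage_control 2 (4.36 CPM).

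The KCNQ1 call was lost without forage_PHY 1 (adjusted p = 0.059), without grain_PHY 1 (0.0682) and without the 3 shallowest libraries (log2 change 1.11, adjusted p = 0.192), and the log2 change without each library in turn lay between 1.05 and 1.41. With total reads as the scale it was 1.73 (adjusted p = 0.0119).

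KCNE3 had 0 to 8 reads in each library, 35 reads in all on grain and 23 on forage. It had no read in 2 grain libraries and in 3 forage libraries, where a count of 0 allows up to 3 reads, or 0.166 to 0.363 CPM in these 5 libraries. The highest level was 0.87 CPM, in grain_PHY 1. KCNE3 was not tested for a difference between diets. It averaged 0.28 ± 0.27 CPM on grain and 0.11 ± 0.13 CPM on forage (SD, n = 9 each), a description from very few reads.

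KCNN4 is a channel that calcium opens through calmodulin, and it is known from secreting epithelia and lymphocytes. It stood at 1.02 to 6.82 CPM on grain (median 3.64) and at 1.85 to 6.49 CPM on forage (median 3.46). The log2 change was −0.05 ± 0.31, with a 95% interval of −0.66 to 0.57 (edgeR adjusted p = 0.909), and with total reads as the scale it was 0.65 (adjusted p = 0.213). The ranges of the diets overlapped almost wholly.

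Of the 6 tested genes other than KCNJ5 and KCNK5, 2 were called over both arms, KCNQ1 higher and KCNK6 lower on grain, where 31.9% of all tested genes were called (18.1% higher and 13.8% lower). Within PHY cows edgeR called none of them and 0% of all genes (8820 genes at an unadjusted p under 0.05), where DESeq2 called 5384 genes and limma voom 7924. In PHY cows KCNQ1 passed with DESeq2 (adjusted p = 0.0235) and with limma voom (0.0116), and KCNK6 passed with limma voom (0.0259). Within control cows edgeR called none of them and again 0% of all genes (2518 unadjusted), and DESeq2 and limma voom also called 0 genes. The log2 changes in PHY cows were −0.54 for ATP1B1, −0.58 for ATP1B3, −0.52 for KCNK6 and 1.51 for KCNQ1, against −0.22, −0.27, −0.30 and 0.85 in control cows.

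The summed level of olfactory receptor reads was set against each of the 8 tested genes within each diet. By Pearson's r 4 relations passed on grain and 1, that of KCNJ5, on forage. The relation was computed for these 8 genes only. How common it is among all tested genes was not measured, so it cannot be called particular to them. KCNJ5 and KCNK5 were picked for their diet change in these same libraries, and the background moved with diet. Their p-values here are thus a description and no independent test. Across the 9 grain libraries log2 KCNJ5 rose with log2 olfactory receptor CPM (Pearson r = 0.87, exact permutation p = 0.00195, adjusted p = 0.0129, Spearman rho = 0.85, exact permutation p = 0.00607, adjusted p = 0.0551). Across the 9 forage libraries r was 0.80 (exact permutation p = 0.0099, adjusted p = 0.0317) and rho 0.80 (exact permutation p = 0.0138, adjusted p = 0.0551). Without the 2 libraries farthest from the median background, r was 0.71 on grain and 0.81 on forage.

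KCNK5 went the other way, with r = −0.87 on grain (exact permutation p = 0.00243, adjusted p = 0.0129, rho = −0.82, exact permutation p = 0.0108, adjusted p = 0.0551). On forage r was −0.74 (exact permutation p = 0.0215, adjusted p = 0.0574) and rho −0.78 (exact permutation p = 0.0172, adjusted p = 0.0551). Without the 2 farthest libraries r was −0.68 on grain and −0.77 on forage. The p-values were two-sided and adjusted over 16 relations, 8 genes in 2 diets.

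On grain ATP1B3 (r = −0.91, adjusted p = 0.0129, exact permutation; rho = −0.78, adjusted p = 0.0551) and ATP1B1 (r = −0.80, adjusted p = 0.0317, exact permutation; rho = −0.77, adjusted p = 0.057) also fell with the background. Without the 2 farthest libraries r was −0.75 for ATP1B3 and −0.45 for ATP1B1. No other relation passed the adjustment by Pearson's r, and none passed by Spearman's rho. For KCNK6 on grain r was −0.68 (exact permutation p = 0.0449, adjusted p = 0.0898). The TMM factor enters the CPM of each gene here, but not the olfactory receptor CPM, which used total reads. On grain it was highest where the background was highest, at 2.35 in grain_PHY 1, 1.53 in grain_control 1 and 1.37 in grain_control 4. The factor did not follow the background in every library. In forage_control 3 it was 0.709, at a background of 48.7 CPM.

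**Figure D2:**
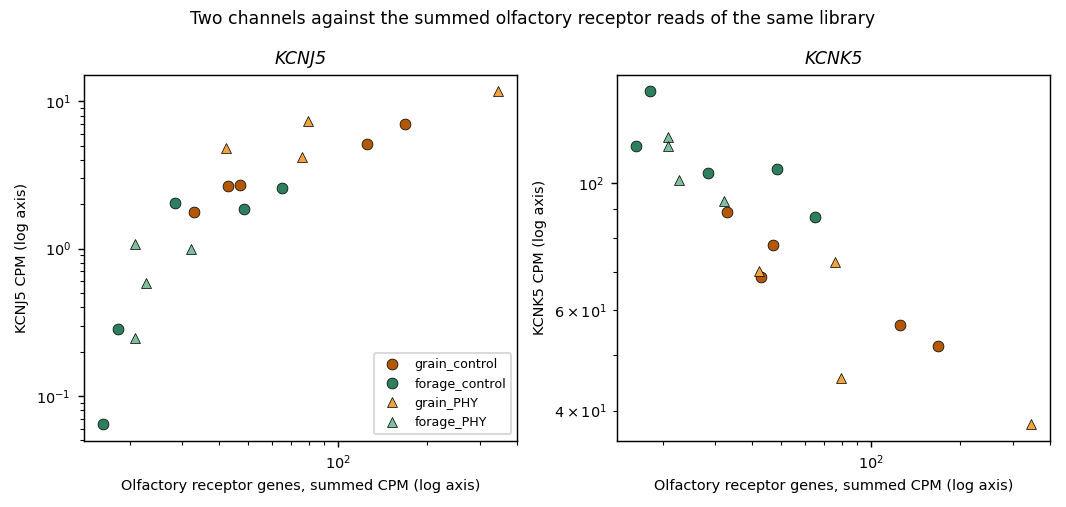
KCNJ5 (left) and KCNK5 (right) in CPM against the summed CPM of 144 olfactory receptor genes in the same library, both axes on a log scale. Each point is 1 library, circles are control cows, triangles PHY cows, and brown to orange marks grain and green forage. KCNJ5 climbs and KCNK5 declines along the axis within both diets, with grain_PHY 1 at the far right at 345.3 CPM of olfactory receptor reads.

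With log2 olfactory receptor CPM as a covariate, 0 genes were called over both arms (1032 at an unadjusted p under 0.05). KCNJ5 then stood at 1.15 ± 0.44, KCNK5 at −0.37 ± 0.14, KCNQ1 at 0.58 ± 0.41 and KCNK6 at −0.13 ± 0.16 (edgeR adjusted p = 0.999 for KCNQ1 and KCNK6). ATP1B1 and ATP1B3 changed sign, to 0.24 and 0.14. The part of the background in these changes was not tested.

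Set against the background in its own library, KCNJ5 had 63.3, 63.5, 55.3, 56.1 and 55.5 reads per 1000 olfactory receptor reads in grain_control, and 51.1, 41.9, 27.2, 12.3 and 3.61 in forage_control. In PHY cows it had 79.1, 93.4, 59.5 and 93.3 on grain and 51.0, 11.1, 26.9 and 18.9 on forage. On this scale the diets did not overlap, as for 0.027% of all tested genes in the same direction. The nearest libraries were grain_control 3 at 55.3, from 47 KCNJ5 reads, and forage_control 1 at 51.1, from 27. That gap lies within counting error. KCNJ5 was picked for its diet change and the scale was chosen after the values were seen. The share is thus no measure of how unusual KCNJ5 is, and the grain and forage values are a description. Against the same background, KCNQ1 averaged 58.82 ± 36.65 on grain and 55.69 ± 28.69 on forage (SD, n = 9 each). KCNE3, from very few reads, averaged 3.87 on grain and 3.74 on forage. Means were lower on grain for KCNK1 (47.89 against 91.3) and KCNN4 (57.92 against 135.4). They were also lower on grain for ATP1B1, ATP1B3, KCNK5 and KCNK6. These differences were not tested.

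**Figure D3:**
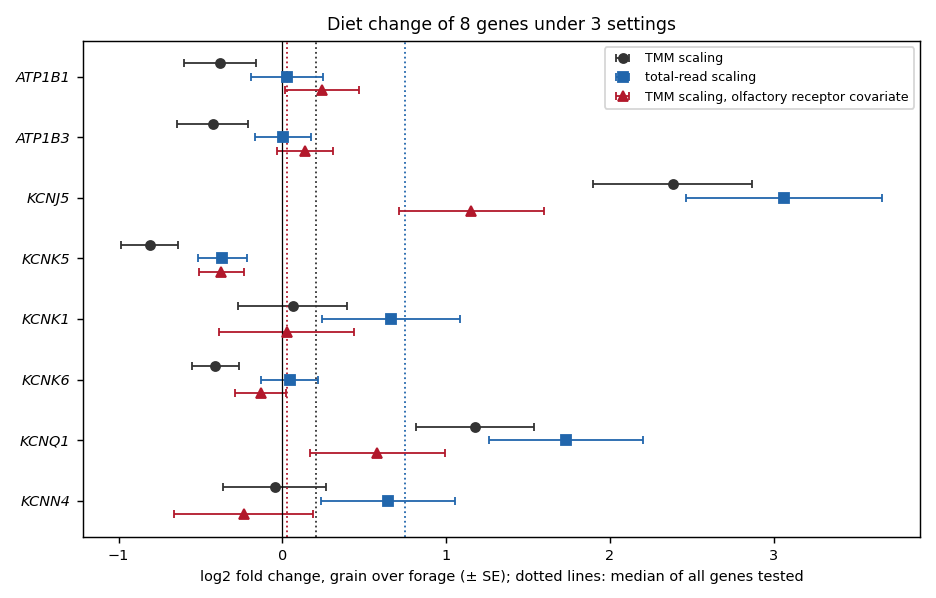
Log2 change of grain over forage over both arms for the 8 tested genes under TMM scaling, total-read scaling and TMM scaling with the olfactory receptor covariate. Points are estimates, bars are ± SE, and dotted lines mark the median of all tested genes under each setting. ATP1B1 and ATP1B3 lie below 0 under TMM scaling and above 0 with the covariate, and KCNJ5 and KCNK5 are shown as a description.

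Other cells of the biopsy were followed by their markers, whose calls stand beside 18.1% of all tested genes called higher and 13.8% called lower on grain. The calls used TMM scaling and the summed levels used total reads, so the scales differ. Single libraries can set the ends of a range. Of 5 myeloid markers 2 were called higher on grain, with a summed level of 38.8 to 135 CPM on grain and 26.1 to 48.0 CPM on forage. Of 7 T and NK cell markers 3 were called higher, at 18.01 to 79.7 CPM on grain and 12.9 to 27.1 CPM on forage. Markers of B and plasma cells had 1 of 5 called higher, at 5.14 to 39.2 CPM on grain and 3.46 to 10.2 CPM on forage, with CD79A and CD79B at 0 in 2 libraries each. Of 6 nerve and glia markers 3 were called higher, at 8.66 to 73.4 CPM on grain and 3.16 to 12.3 CPM on forage, and of 4 tested red blood cell markers 2, at 3.53 to 48.8 CPM on grain and 1.16 to 8.10 CPM on forage. Markers of smooth muscle (6), fibroblasts (6) and endothelium (5) had no call, at 103 to 281.5, 883 to 1917 and 109 to 290.4 CPM on grain and 42.3 to 461, 161 to 2223 and 75.8 to 245 CPM on forage. Epithelial markers had 2 of 12 called higher and 5 lower on grain. The part of these cells in the values of the 9 genes was not tested.

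The second question was whether PHY cows differed from control cows on the same diet. None of the 8 tested genes was called on grain, where 0% of all genes were called (571 at an unadjusted p under 0.05), or on forage, where 0% were called (356 unadjusted). DESeq2 and limma voom with sample quality weights also called 0 genes in both comparisons.

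The widest estimates were those of KCNJ5. On grain it stood at 7.01 ± 3.40 CPM in PHY cows (SD, n = 4) and at 3.86 ± 2.16 CPM in control cows (n = 5), with 2 of 4 PHY libraries above all control libraries. The log2 change was 0.87 ± 0.64, with a 95% interval of −0.38 to 2.13 (edgeR adjusted p = 0.999). On forage it stood at 0.73 ± 0.38 CPM in PHY cows and at 1.37 ± 1.12 CPM in control cows, with a log2 change of −0.87 ± 0.69 and an interval of −2.22 to 0.48 (edgeR adjusted p = 1).

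For KCNK5 the log2 change was −0.28 ± 0.24 on grain (95% interval −0.76 to 0.20) and −0.05 ± 0.24 on forage (interval −0.53 to 0.42, 0.05 with total reads as the scale). ATP1B3 stood at −0.05 ± 0.31 on grain and 0.25 ± 0.31 on forage, and ATP1B1 at −0.03 ± 0.31 on grain and 0.29 ± 0.31 on forage. KCNK6 stood at 0.05 ± 0.21 on grain and 0.27 ± 0.20 on forage, and 3 of 4 forage_PHY libraries lay above all forage_control libraries. The other 3 genes had log2 changes of 0.09 to 0.16 on grain and −0.50 to 0.35 on forage, with every interval reaching across 0.

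**Figure D4:**
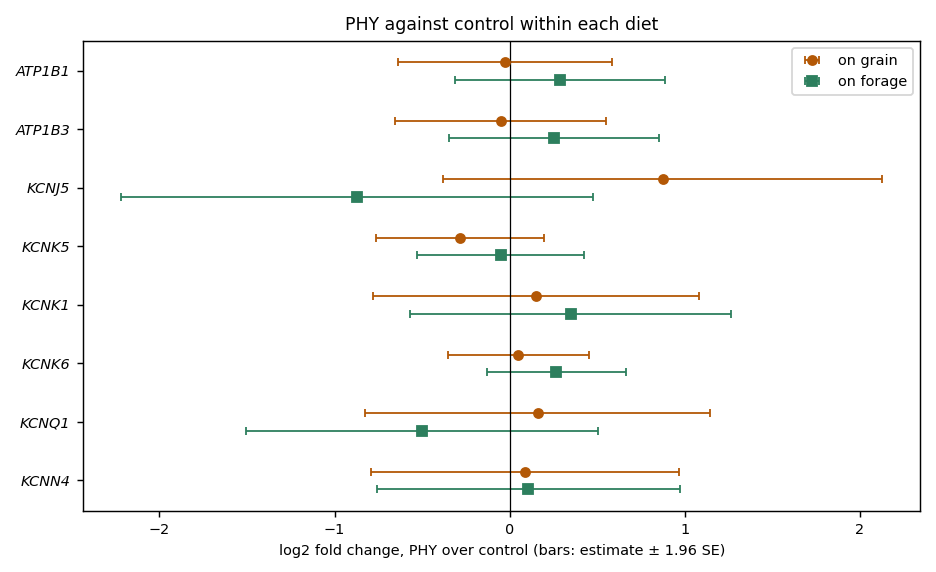
Log2 change of PHY over control libraries on grain (circles) and on forage (squares) for the 8 tested genes, with 95% intervals as bars. Every interval crosses 0, and the widest belong to KCNJ5, at −0.38 to 2.13 on grain and −2.22 to 0.48 on forage.

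The difference between the diet responses of PHY and control cows was called for 0% of all genes and for none of the 8 (442 genes at an unadjusted p under 0.05). The largest estimate was that of KCNJ5, 1.74 ± 0.94 (PHY minus control, 95% interval −0.10 to 3.59, edgeR adjusted p = 0.954). With the olfactory receptor covariate it was 0.81 ± 0.72. For KCNK5 it was −0.23 ± 0.34 (interval −0.90 to 0.44).

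The wider pump and channel families were described from lists of related genes that leave out the 9 genes. Over all tested genes 18.1% were called higher and 13.8% lower on grain, and the counts of each list stand beside these shares. Of 15 tested pump genes, 5 rose on grain (33.3%) and 2 fell (13.3%), with a median log2 change of 1.45 against 0.20 over all tested genes. Among those that rose were ATP4A (1.94 ± 0.49), the proton pump of gastric glands, ATP12A (1.65 ± 0.52), its relative outside the stomach, and ATP1A4 (1.54 ± 0.43), the alpha subunit of sperm. Their edgeR adjusted p ran from 0.0216 to 0.0277. These 3 genes were low, between 4.32 and 5.98 CPM on grain and 1.13 and 2.15 CPM on forage. Among those that fell was FXYD6 (−0.44 ± 0.16, edgeR adjusted p = 0.0427), a small modulator of the pump, which stood at 0.03 with total reads as the scale. The FXYD6 call was lost when any 1 of 14 libraries was left out.

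Of 44 tested inward-rectifier, two-pore, KCNQ, KCNE and calcium-activated channel genes, 15 rose (34.1%) and 2 fell (4.55%), against 18.1% and 13.8% of all tested genes, with a median log2 change of 1.31. KCNE1 (2.34 ± 0.74), another subunit of KCNQ1, rose, as did the inward rectifiers KCNJ16 (2.03 ± 0.56) and KCNJ9 (1.88 ± 0.41) and the subunit KCNE4 (1.99 ± 0.55). These genes were low. KCNE1 averaged 1.27 ± 1.42 CPM on grain and 0.25 ± 0.23 CPM on forage (SD, n = 9 each), and its call was lost when any 1 of 3 libraries was left out. On forage KCNJ16 averaged 0.92 CPM and KCNE4 0.58 CPM. KCNJ9, which forms channels of the same G protein-gated kind as KCNJ5, averaged 3.72 ± 2.42 CPM on grain and 1.06 ± 0.66 CPM on forage (SD, n = 9 each), and 7 of 9 grain libraries lay above all forage libraries. KCNK7 (−0.82 ± 0.21), of the two-pore family, and KCNN3 (−0.63 ± 0.17), a calcium-activated channel, fell (edgeR adjusted p = 0.0216 for each). They were at −0.31 and −0.13 with total reads as the scale, without a call.

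Of 40 tested voltage-gated channel genes 13 rose (32.5%) and 1 fell (2.5%), against the same 18.1% and 13.8%, with a median log2 change of 1.31. KCNH6 (2.48 ± 0.73), KCNC1 (2.43 ± 0.59), KCNF1 (2.38 ± 0.88) and KCNA6 (1.99 ± 0.59), channel subunits known mainly from nerve cells, rose on grain and averaged under 1 CPM on forage (edgeR adjusted p = 0.0202 to 0.0433). KCNC4 (−0.53 ± 0.20, edgeR adjusted p = 0.0448) fell, at 25.7 ± 7.76 CPM on grain and 37.1 ± 11.1 CPM on forage. No grain library of KCNC4 lay below all forage libraries. Its call was lost when any 1 of 13 libraries was left out, and that of KCNF1 when any 1 of 12 was.

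Of 15 cation-chloride cotransporters and regulators of salt transport 5 rose (33.3%) and 3 fell (20%), against 18.1% and 13.8% of all tested genes, with a median log2 change of −0.08. SLC12A2 (0.66 ± 0.20, edgeR adjusted p = 0.0257), which brings sodium, potassium and chloride into the cell, rose. STK39 (1.27 ± 0.32, edgeR adjusted p = 0.0207), a kinase that activates SLC12A2, rose as well. SLC12A2 averaged 6.92 ± 1.61 CPM on grain and 4.37 ± 1.22 CPM on forage (SD, n = 9 each). SLC12A3 (1.72 ± 0.45), the sodium-chloride cotransporter of the kidney, and SLC12A5 (1.71 ± 0.39), the chloride exporter of neurons, rose too. SLC12A7 (−0.64 ± 0.23), which carries potassium and chloride out, and the kinases WNK1 (−0.57 ± 0.19) and OXSR1 (−0.54 ± 0.18) fell (edgeR adjusted p = 0.0332 to 0.0386). The signs of these 3 were kept with total reads as the scale, without a call. Under TMM their calls were lost when any 1 of 11 libraries (SLC12A7), 10 (WNK1) or 9 (OXSR1) was left out.

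These families split by level. Of the 16 listed genes that averaged 10 CPM or more, the tested pump and channel genes included, all 16 had a negative log2 change, and of 106 below that level 102 had a positive one. Over all tested genes 92.7% of those at or above 10 CPM and 18.7% of those below it were negative. With total reads as the scale 8 of the 16 were negative, beside 3297 of all 7574 tested genes at or above 10 CPM. Below that level 104 of the 106 were positive on that scale, beside 14012 of all 14628 tested genes. The level of 10 CPM was chosen after the values were seen. No gene of the 4 lists was called without grain_PHY 1, without the 3 shallowest libraries, or with the olfactory receptor covariate, which brought the list medians to between 0.02 and 0.19. With total reads as the scale 8 of 15 pump genes were called higher, and 33 of 44 and 26 of 40 genes of the channel lists. Of 15 cotransporters and regulators 7 were called higher, and 0 genes of the 4 lists were called lower. On that scale 8057 of all 22202 tested genes were called higher and 81 lower. The lack of lower calls is thus not particular to the lists.

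**Figure D5:**
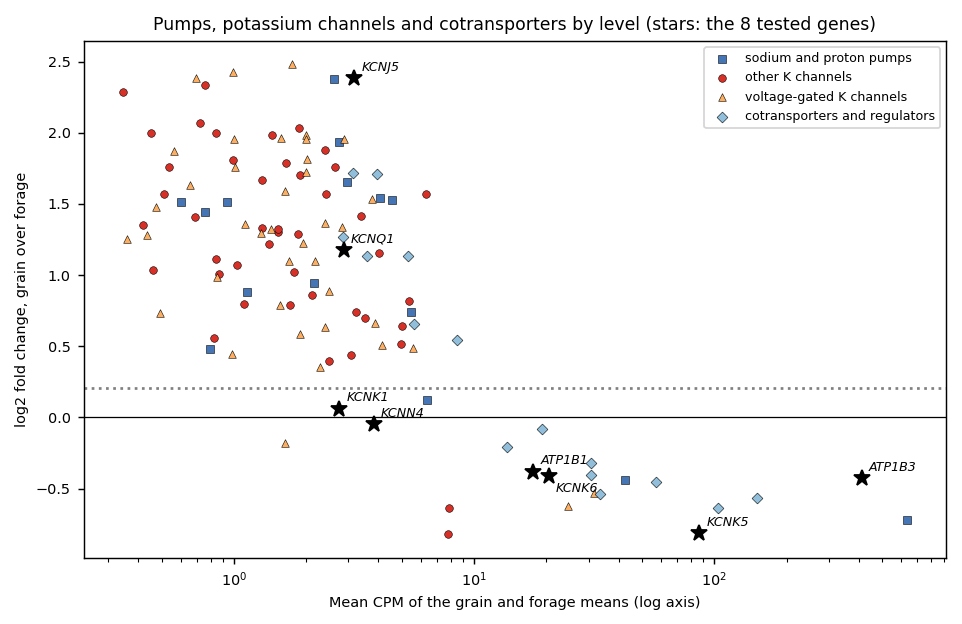
Log2 change of grain over forage over both arms against mean level in CPM (log axis) for the tested genes of the 4 lists (squares, circles, triangles and diamonds) and the 8 tested genes (stars). The dotted line is the median of all tested genes, 0.20. Genes at 10 CPM or more lie below 0, KCNJ5 and KCNQ1 lie among the low genes above 0, and KCNK1 and KCNN4 lie near 0 at a like level.

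Genes whose log2 CPM ran most like that of a pump or channel gene were sought among 9892 named genes that averaged 5 CPM or more over the 18 libraries. The libraries share diet, depth and background, so the correlations are a description. Most like KCNJ5 were TIAM2 (r = 0.96), ABCC2 (r = 0.95) and COL4A3 (r = 0.95). Most like KCNK5 were MKNK2 (r = 0.95), FOXO1 (r = 0.95) and GUCD1 (r = 0.95). Most like ATP1B1 were STIP1 (r = 0.91), TCP1 (r = 0.90) and NDUFA2 (r = 0.89), and most like ATP1B3 were METTL7A (r = 0.93), RETREG3 (r = 0.93) and MARK2 (r = 0.93).

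Among the 8 tested genes, over the same 18 libraries, ATP1B1 and ATP1B3 moved together (r = 0.85), and ATP1B3 and KCNK6 did as well (r = 0.82). KCNJ5 and KCNK5 were opposed (r = −0.87), which follows in part from how they were picked, and KCNQ1 was opposed to KCNK5 (r = −0.78). KCNK1 and KCNN4 ran with none of the others, with r between −0.34 and 0.27.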

How the data were processed

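RNA was measured in 18 libraries of rumen papillae, made from 10 ng of total RNA each with a stranded total RNA kit after extraction with a column kit that keeps small RNA, per the labels' protocols. The deposited count table holds whole-number read counts per Ensembl gene and library, which the authors assigned to the cattle build bosTau9 after demultiplexing with bcl2fastq 2.20, per the submitters' processing notes. The deposited normalized signal table holds the same counts divided by 1 DESeq2 size factor per library, which the authors computed with DESeq2 (version not stated), and this was checked on the values, with a largest relative deviation of 5.2e-15, so only the counts were tested. The strand setting, aligner, counter and annotation are each not given in the sources used here. Gene names are those of the count table, where 7506 genes have only an identifier. Neighbouring genes were taken by name from a RefSeq table of another assembly, so no coordinates are given.

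Groups were compared in R 4.3.3 with the quasi-likelihood F test of edgeR 4.0.16, with TMM scaling and robust dispersion, after filterByExpr by group (minimum count 10, minimum total 15). The model had 1 mean per group over all 18 libraries, no cow term and no covariate. The biological coefficient of variation was 51.4%. A call was an adjusted p (Benjamini-Hochberg) under 0.05 over the 22202 genes tested in each of 6 contrasts. The SE of a log2 change was taken from the change and its F value. CPM of single genes used TMM effective library sizes, and CPM of olfactory receptors and cell type markers used total reads. Correlations with olfactory receptor CPM were tested by exact permutation, two-sided. Likeness between genes used log2 CPM with a prior count of 2.

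The alternatives were no low-count filter, DESeq2's size factors within edgeR, DESeq2 1.42.0, limma 3.58.1 voom with sample quality weights, an olfactory receptor covariate, leaving out the 3 libraries with the fewest reads (grain_PHY 1, grain_control 1 and grain_control 4), leaving out each library, and only the groups compared. Total reads as library size was added after seeing the data. The code was tested on simulated counts with less spread than these data and no shift of composition between diets. That run checks the code and does not bear on the choice of scale. The 9 genes and the lists were chosen with earlier results of these data known. The named genes are the 9 genes, up to 4 called genes per list and direction with the largest change over both arms, and the 3 genes most like each of 4 members. KCNJ1, KCNK17 and NME7 were named only for their place beside or over a gene of the 9, and CD79A and CD79B as cell markers. KCNJ1 and KCNK17 were not called. Other called list members are counted and not named, and some results of this rule are not reported here. Depth ran from 3953060 to 34471682 reads, and counting error alone is large for KCNJ5, KCNK1, KCNQ1 and KCNE3.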

Additional observations from a re-analysis of the deposited data

Results flagged for a closer look

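In 3 of 36 sets of libraries, 1 per gene and group, the highest or lowest library stood far from the others by Dixon's test. Chance alone gives about 1 such set in 20. ATP1B1 in forage_PHY 4 was at 13.9 CPM, where the nearest forage_PHY library was at 24.6 CPM. KCNK6 in the same library was at 19.4 CPM, and the nearest was at 27.4 CPM. KCNQ1 in forage_control 2 was at 4.36 CPM, where the nearest forage_control library was at 1.91 CPM.

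Without forage_PHY 4 the log2 diet change of KCNK6 over both arms was −0.48 (edgeR adjusted p = 0.0348), and without forage_control 2 that of KCNQ1 was 1.41 (edgeR adjusted p = 0.0118). Each of these libraries lay against the direction of the diet change, so leaving it out could only widen that change. The KCNK6 call was lost without any 1 of 11 other libraries.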

How the results depend on the processing

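No paired analysis was possible because no label gives the cow of a library. The count of genes called over both arms was 7091, and 0 with the olfactory receptor covariate and without the 3 shallowest libraries. Leaving out each library gave 1 to 9587 calls, with 1 without grain_PHY 1, 2150 and 2860 without forage_PHY 1 and 2, 2890 and 3544 without grain_control 1 and 4, and 4525, 4489 and 4278 without forage_control 1, 4 and 5. In PHY cows DESeq2 called 5384 genes, limma voom 7924 and a fit of the 2 groups alone 4353. Leaving out each library gave 0 to 1677 calls there (1677 without forage_control 5 and 1428 without grain_control 1). DESeq2's size factors gave 4302 higher and 2319 lower over both arms and DESeq2 6579 and 2953.

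The 5 pump genes higher on grain became 9 with limma voom, 8 with total reads and 0 with the covariate or without the 3 shallowest libraries, and 0 to 9 without each library (0 without grain_PHY 1, 9 without forage_control 2, 8 without grain_control 5). The 2 lower became 1 with DESeq2's size factors and 0 with total reads, with the covariate or without the 3 libraries, and 0 to 2 without each library. They became 0 without forage_control 5, forage_PHY 1, forage_PHY 2 or grain_PHY 1, and 1 without any other library but forage_control 2 and 3, grain_control 5 and grain_PHY 4. The 15 channels higher on grain became 26 with DESeq2, 28 with limma voom, 33 with total reads and 0 with the covariate or without the 3 libraries, and 0 to 25 without each library. They were 0 without grain_PHY 1, 6 without forage_PHY 1 or grain_control 1, 8 without grain_control 4, 9 without forage_control 1 or forage_PHY 2, and 25 without forage_control 2. The 2 lower became 0 with total reads, with the covariate, without the 3 libraries and without grain_PHY 1, and 0 to 2 without each library. Calls over all tested genes moved with the setting too, as given above, and those of limma voom over both arms are not reported here. The list counts thus describe the settings and are not a result about the lists.

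The log2 changes that follow had the opposite sign under TMM with all 18 libraries, where only those of KCNK6, KCNC4, OXSR1 and FXYD6 over both arms had been called. With total reads over both arms the values were 0.027 for ATP1B1, 0.0037 for ATP1B3, 0.046 for KCNK6, 0.65 for KCNN4 and 0.029 for FXYD6. In PHY cows they were 0.66 for KCNK1 and 0.76 for KCNN4, in control cows 0.24 for ATP1B1, 0.19 for ATP1B3, 0.17 for KCNK6 and 0.53 for KCNN4, between arms on forage 0.049 for KCNK5, and 0.24 for the response difference of KCNN4. With the covariate ATP1B1 stood at 0.24 over both arms, 0.22 in PHY cows, 0.26 in control cows and 0.17 between arms on grain. ATP1B3 stood at 0.14, 0.12, 0.16 and 0.14 in the same order, KCNC4 at 0.044 and OXSR1 at 0.035 over both arms, KCNQ1 at −0.11 between arms on grain, and KCNK5 at 0.011 for the response difference. KCNN4 stood with DESeq2's size factors at 0.055 over both arms, 0.083 in PHY cows, 0.027 in control cows and 0.056 for the response difference. In DESeq2 these were 0.053, 0.082, 0.025 and 0.056. KCNK1 in PHY cows stood at 0.098 with DESeq2's size factors and 0.089 in DESeq2. With the 2 groups alone it was 0.15, and KCNN4 was 0.14 in PHY cows and 0.060 in control cows. With limma voom KCNK1 stood at −0.20 over both arms, −0.036 in control cows and −0.046 between arms on grain. KCNN4 then stood at −0.18 between arms on forage, −0.067 on grain and 0.11 for the response difference, and ATP1B1 and ATP1B3 between arms on grain at 0.28 and 0.16. Without the 3 shallowest libraries ATP1B1, KCNK1 and KCNN4 between arms on grain stood at 0.062, −0.18 and −0.20.

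Without each library in turn, KCNN4 ranged from −0.21 to 0.10 over both arms, −0.41 to 0.25 in PHY cows, −0.20 to 0.25 in control cows, −0.14 to 0.39 between arms on forage, −0.32 to 0.40 on grain and −0.39 to 0.29 for the response difference. KCNK1 ranged from −0.086 to 0.18 over both arms, −0.27 to 0.15 in PHY cows, −0.14 to 0.40 in control cows, −0.15 to 0.45 between arms on grain and −0.44 to 0.098 for the response difference. Between arms on grain KCNK6 ranged from −0.037 to 0.14, ATP1B1 from −0.25 to 0.20, ATP1B3 from −0.21 to 0.13 and KCNQ1 from −0.045 to 0.43. KCNK5 on forage ranged from −0.13 to 0.060, and ATP1B1 in control cows from −0.45 to 0.070.

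Over both arms the change without each library lay between 2.21 and 2.58 for KCNJ5 and between −0.89 and −0.70 for KCNK5, both picked for that change. The cause of the changes was not tested. Low reads limit KCNJ5, KCNK1, KCNQ1, KCNN4 and KCNE3, and the depth gap between diets, diet order and background move together, so their parts cannot be told apart.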
